A study of Homo sapiens with 9 samples.

Results

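The cytosolic ribosomal protein genes were examined in HaCaT cells, an immortalized human keratinocyte line, after 24 h with EGF or bleogen pB1. Their members were taken by gene symbol alone: RPL or RPLP with a number for the large subunit, and RPS with a number or RPSA for the small subunit, with an optional final A or X. This gave 77 genes of the 16199 genes listed in at least 1 library, of which 46 encode proteins of the large (60S) subunit and 31 encode proteins of the small (40S) subunit. Mitochondrial ribosomal proteins, paralogues whose symbol ends in L, and ribosomal proteins with other names, such as FAU and RACK1, lie outside the pattern. All 77 members were listed in all 9 libraries and passed the count filter, which kept 12394 genes.

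The study set out to compare bleogen pB1 with EGF. EGF is the prototypic ligand of the EGF receptor (EGFR), and bleogen pB1 is a cystine-rich peptide of the cactus Pereskia bleo that acts as an EGFR agonist. Wild-type HaCaT cells past confluence were kept in serum-free medium alone (untreated), or in that medium with EGF at 10 nM or bleogen pB1 at 1 µM for 24 h, with 3 replicates in each group. The doses of the 2 agonists differ, there is 1 time point, and HaCaT is a single line of long culture, so the comparison holds for these doses in these cells. Nothing in the labels says that the replicates were separate cultures, so the p-values measure the spread between these samples, which may be technical. Each library held between 20288417 and 21320994 expected counts, estimates of the reads per gene. The keratinocyte markers KRT5, KRT14, KRT17, TP63 and DSG3 had at least 3325 counts in every library. COL1A2 and PDGFRA of fibroblasts stayed at or below 3 counts and PTPRC of immune cells at or below 6. COL1A1 had 14 to 73 counts, CD68 214 to 428, the endothelial PECAM1 0 to 7 and CDH5 0 to 77, and the melanocyte MLANA 2 to 7 and PMEL 9 to 30. After EGF the log2 fold change was 0.77 for CD68, -1.67 for COL1A1 and -4.70 for CDH5, and within the keratinocyte markers -1.12 for KRT5 and 0.88 for KRT14. Their part in the results was not tested.

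A ribosome holds 1 copy of most of its proteins, joined to ribosomal RNA in the nucleolus, and growing cells spend a large part of their transcription on these genes. Many ribosomal protein mRNAs begin with a 5′ terminal oligopyrimidine (TOP) tract, a C at the first base followed by an unbroken run of pyrimidines. Through this tract LARP1 and the mTOR pathway govern how much of the mRNA is translated and how long it lasts. EGFR signalling feeds into that pathway, and keratinocytes use it during growth and wound closure. Bulk RNA measures neither translation nor protein. In bulk samples, fewer cells of a type and less RNA per cell cannot be told apart.

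The start sites of the members with the strongest differences are shown first, because the TOP tract is what this gene family shares at its start. Each window runs from 10 bases before to 20 bases from a listed RefSeq transcription start (GRCh38.p14), 5′ to 3′ on the strand of the gene. Capitals mark an unbroken pyrimidine run of at least 5 bases that begins with C at the start. RPL11, RPL34 and RPL6 have 2 listed starts each. In such genes the start with the longest run was picked for display, so the tracts of RPL11 and RPL34 were chosen by that rule. Neither start of RPL6 has such a run, so the one with the lower coordinate is shown. It lies within the gene, whose 5′ end is listed at position 112418835. The first 5 were the members with the lowest log2 fold change after EGF, the next 2 were members that rose, RPS6 carries a long tract and moved little, and RPS4X fell without a tract.
RPL36A (chrX:101391001-101391030, plus strand): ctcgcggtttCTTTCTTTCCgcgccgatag
RPL13A (chr19:49487598-49487627, plus strand): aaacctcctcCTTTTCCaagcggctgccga
RPL11 (chr1:23691796-23691825, plus strand): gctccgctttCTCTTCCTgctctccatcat
RPL34 (chr4:108620566-108620595, plus strand): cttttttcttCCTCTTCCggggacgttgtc
RPL12 (chr9:127451387-127451416, minus strand): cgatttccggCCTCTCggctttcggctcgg
RPL6 (chr12:112409266-112409295, minus strand): gacggcgcgtgcactgtgttcctggtcctg
RPS7 (chr2:3575250-3575279, plus strand): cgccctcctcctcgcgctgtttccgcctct
RPS6 (chr9:19380217-19380246, minus strand): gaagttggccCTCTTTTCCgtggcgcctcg
RPS4X (chrX:72277229-72277258, minus strand): ctccagccccaatttctacgcgcaccggaa

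Of the 77 members, 62 were matched to a start in the RefSeq promoter table. A gene with several listed starts was counted if any of them had the feature, for members and all genes alike. A C at the start with at least 5 pyrimidines in a row was present in 46 of the 62 (74.2%), against 5.1% of 27305 genes in the table. When such a run could begin anywhere within 10 bases of the start, the shares were 91.9% and 38.4%. Within the 300 bases around the start, searched on both strands, CCGGAA (the core bound by ETS factors) lay in 56.5% of the members and 20.1% of all genes. The E-box CACGTG lay in 6.5% and 8.8%, and TATAAA in 8.1% and 14.0%. The tract and the CCGGAA core were thus more frequent among the members than in the table as a whole, and the other 2 motifs were less frequent. A match of letters is a description of the window and does not show binding.

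The members were among the most abundant mRNAs of the cells. By FPKM (fragments corrected for how long a gene is and how deep the library), the median member stood at 917 in untreated cells, against 6.65 for all genes listed, and 56 members were among the 100 genes with the highest mean. RPL41, which encodes a very short peptide of the large subunit, had the highest FPKM with 5080 ± 543 (SD, n = 3). RPS2, a protein at the mRNA entry site, followed with 4621 ± 248, which is within the spread of RPL41. RPL19 had 2945 ± 131 FPKM, RPLP1 2848 ± 119 and RPL7A 2377 ± 88.8. RPL19 and RPLP1 did not differ beyond their spread, while both lay below RPS2. At the other end, RPS23 had the lowest FPKM with 146.5 ± 9.16, 34.7-fold below RPL41. RPS26 had 204.9 ± 16.2, RPL27A 226.7 ± 24.6, RPL13 241.0 ± 15.2 and RPL22 247.5 ± 5.16 FPKM, and these 4 neighbours overlapped one by one in their spread. The listed gene length was long for these genes, 3325 bases for RPS23, 4906 for RPL27A and 4506 for RPL13, against a median of 719 bases over the members. A long listed length lowers the FPKM, so the lower end of this order rests on the transcripts that the annotation lists. RPS23 was also the lowest member after EGF (132.3 FPKM) and after bleogen pB1 (153.8 FPKM).

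**Figure D1:**
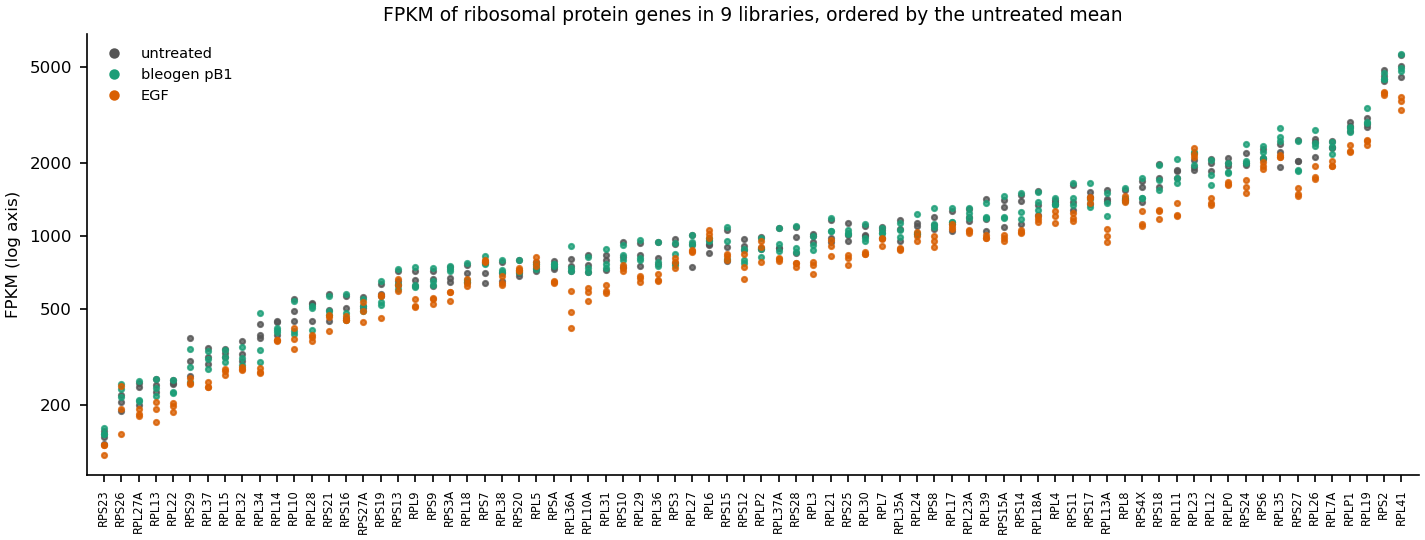
FPKM (log axis) of the members, all but 1, in each of the 9 libraries, with members ordered along the x axis by their untreated mean and one point per library, coloured by group. The order runs from RPS23 at 146.5 to RPL41 at 5080 FPKM in untreated cells, and at the upper end the EGF points of RPL41 and RPS2 lie below those of the other groups.

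Together the members took up a smaller part of the library after EGF. Their share of all expected counts was 6.20%, 6.74% and 5.88% in the untreated libraries, 5.33%, 5.30% and 5.41% after EGF, and 6.73%, 5.85% and 6.01% after bleogen pB1. The 3 EGF libraries lay below all 6 others and close to each other, while the untreated and bleogen pB1 libraries overlapped over nearly their whole range. The means were 6.27% ± 0.434 (SD, n = 3) in untreated cells, 5.35% ± 0.0591 after EGF and 6.20% ± 0.465 after bleogen pB1. The EGF mean was 0.926 percentage points lower than the untreated mean. With library totals scaled by TMM factors the gap was smaller, with means of 6.215% in untreated cells, 5.509% after EGF and 6.079% after bleogen pB1. Both subunits took part, with 4.03% against 3.41% for the large and 2.24% against 1.94% for the small subunit in untreated and EGF-treated cells. The ratio of small to large subunit counts stayed between 0.547 and 0.572 in all 9 libraries.

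**Figure D2:**
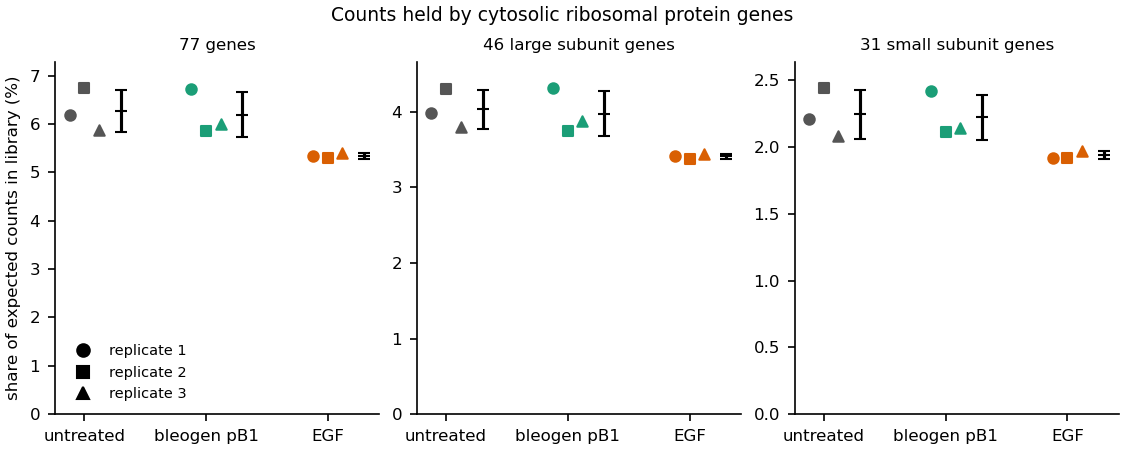
Percentage of the expected counts of each library held by all 77 members (left), by the 46 large subunit genes (middle) and by the 31 small subunit genes (right), with the replicates as points and the mean ± SD of each group in black. The EGF libraries lie between 5.30% and 5.41% for all members, below the lowest other library at 5.85%.

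A library of the untreated group and a library of the bleogen pB1 group stood apart as the highest in member levels. The median member lay 0.125 above the untreated mean on the log2 CPM scale in untreated replicate 2 and 0.120 above it in bleogen pB1 replicate 1. In untreated replicates 1 and 3 it lay at -0.021 and -0.109, and in the other bleogen pB1 replicates at -0.121 and -0.076. Untreated replicate 3 and bleogen pB1 replicate 2 thus lay about as far below the untreated mean. The EGF libraries were at -0.173, -0.198 and -0.150. The 576 other genes with a listed length under 1000 bases moved with the same libraries, with medians of 0.092 in untreated replicate 2 and 0.065 in bleogen pB1 replicate 1. These short genes were at -0.046, 0.014 and -0.004 in the EGF libraries, nearer to the untreated mean than the members. Among the members, 24 of 60 shorter than 1000 bases (40%) were lower after EGF (median log2 fold change -0.17), against 30.7% of the other genes of that length. Of the 17 longer ones 11 (64.7%) were lower (median -0.22), against 33.7% of the other longer genes. The part of a length-related shift in the results was not tested. Counts that lead the comparisons below were therefore repeated without untreated replicate 2 and bleogen pB1 replicate 1, a choice made after seeing the data.

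EGF lowered many ribosomal protein mRNAs by a small amount and raised few. By edgeR's quasi-likelihood test with an adjusted p of at most 0.05, 35 of 77 members (45.5%) were lower after EGF than in untreated cells, against 33.6% of all genes tested. Only 4 members (5.19%) were higher, against 32.4% of all genes tested, and 38 did not pass. With the added limit of 0.5 on the absolute log2 fold change, 1 member was lower and 0 were higher, while 21.8% and 15.1% of all genes tested were lower and higher by that rule. The median log2 fold change of the members was -0.17, with a range of -0.53 to 0.27, and that of all genes tested was -0.01. The interquartile range of the members was -0.27 to -0.06, and that of all genes tested -0.46 to 0.34, so the members were spread over a narrower range. All 3 EGF libraries lay below all 3 untreated libraries in 38 members and above them in 4, against 35.9% and 34.5% of all genes tested. Standard errors were small for these abundant genes, with a median of 0.08 on the log2 scale. With single replicates left out, the count of lower members ranged from 21 (without untreated replicate 2) to 44. It was 28 without both libraries that stood apart. The count of higher members was 2 without untreated replicate 3. With the fold limit, 0 were lower without untreated replicate 1, 2 without EGF replicate 1 and 3 without untreated replicate 3. Upper-quartile scaling moved the median of all genes tested to -0.12, and with it that of the members to -0.28, with 52 members lower and 1 higher.

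**Figure D3:**
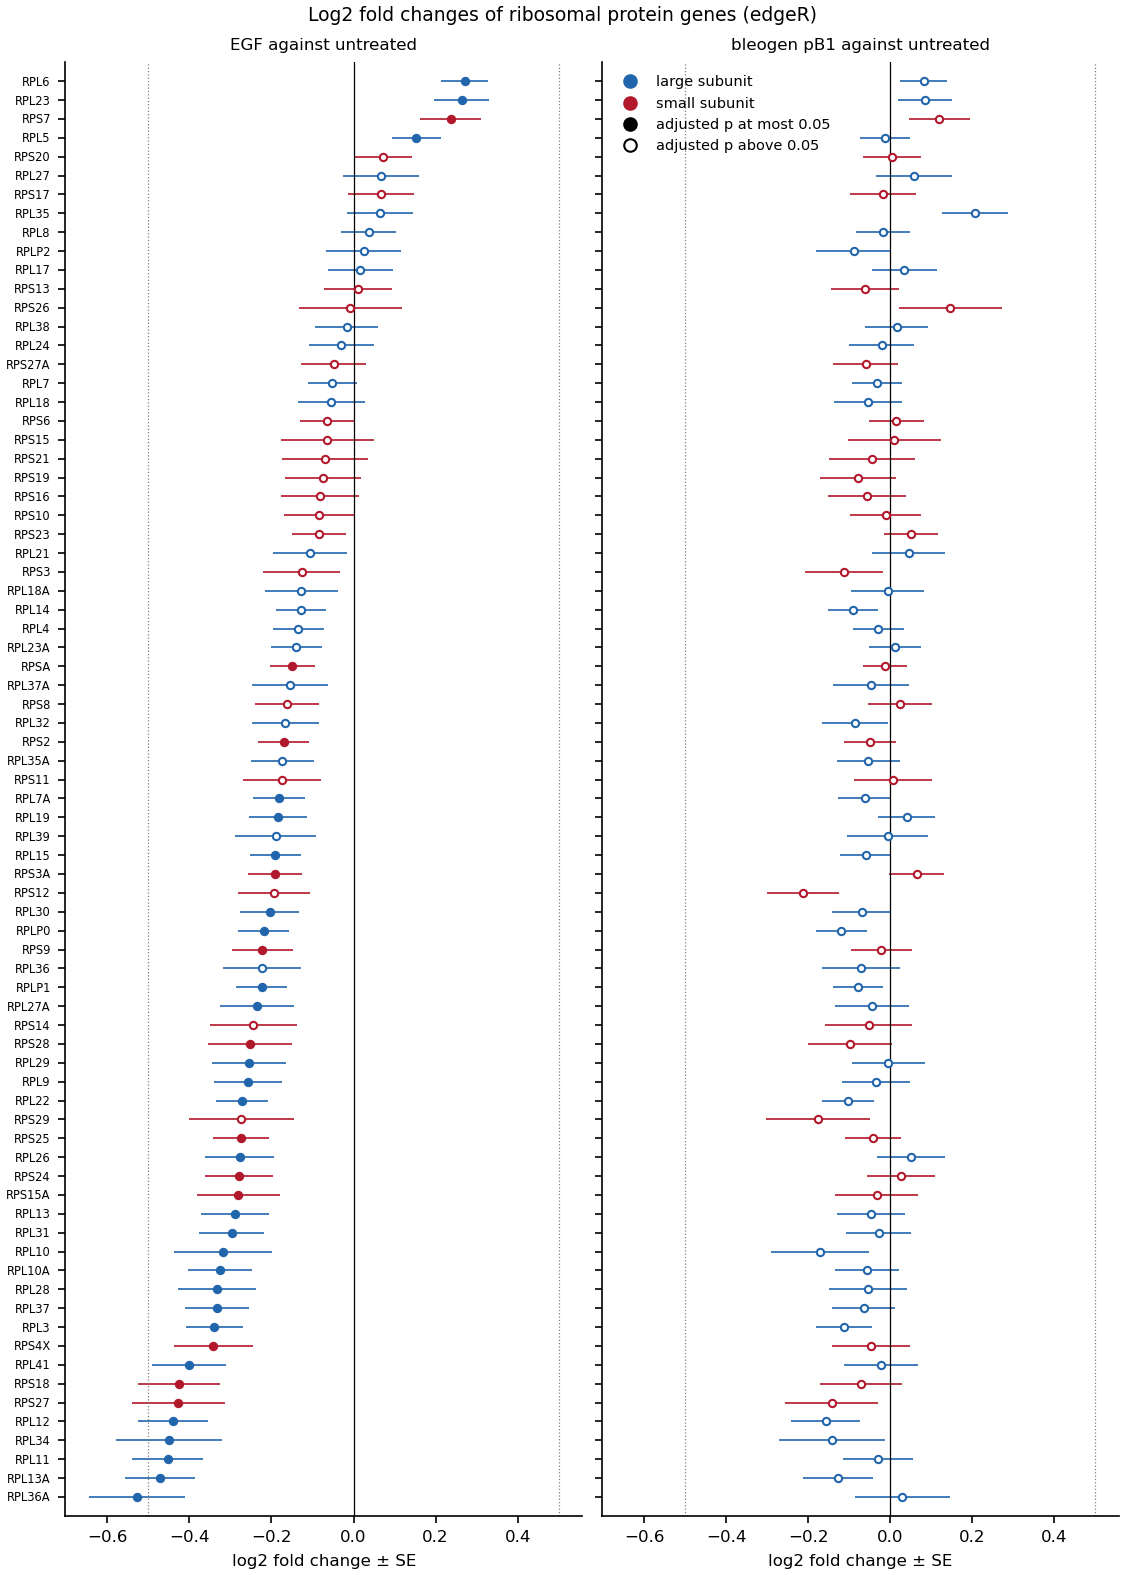
Log2 fold change ± SE (edgeR) of the members, all but 1 that did not pass in either comparison, for EGF against untreated (left) and bleogen pB1 against untreated (right), ordered by the EGF value, with large subunit genes in blue, small subunit genes in red, filled points for an adjusted p of at most 0.05 and dotted lines at the fold limit of 0.5. With EGF the 39 filled points run from RPL36A at -0.53 to RPL6 at 0.27, and with bleogen pB1 no point is filled.

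Of the 46 genes of the large subunit, 24 (52.2%) were lower and 3 (6.5%) higher after EGF, against 33.6% and 32.4% of all genes tested, with a median log2 fold change of -0.19. The subunits were not tested against each other. RPL36A, which lies near the tRNA exit site, had 642, 609 and 570 CPM (counts scaled to library size, with TMM factors) in untreated cells, 498, 352 and 413 after EGF, and 718, 562 and 579 after bleogen pB1. The EGF libraries were the 3 lowest and did not overlap with either other group. Its log2 fold change for EGF was -0.53 ± 0.12 (SE; edgeR adjusted p = 0.0014), the lowest of all members and the only one past the fold limit. Its value was inside the limit without untreated replicate 1 (-0.49) and without EGF replicate 2 (-0.41). The near-identical paralogue RPL36AL was measured separately and was higher after EGF, by 0.19, so reads shared between the pair would blur both values.

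RPL13A, a surface protein of the large subunit that is also part of an inhibitory complex on inflammatory mRNAs, had 1585, 1749 and 1539 CPM in untreated cells and 1099, 1247 and 1169 after EGF. The bleogen pB1 libraries had 1654, 1313 and 1493 and overlapped with the untreated ones alone. The fall with EGF was -0.47 ± 0.09 (edgeR adjusted p = 0.00033), the smallest p among the members. RPL34 had 196, 219 and 189 CPM in untreated cells and 144, 145 and 153 after EGF, a log2 fold change of -0.45 ± 0.13. RPL12, a protein at the base of the stalk, had 1195, 1257 and 1096 CPM in untreated cells and 897, 849.6 and 868 after EGF. Its log2 fold change was -0.44 ± 0.08. In both genes the EGF libraries lay below every untreated library by more than the distance between the EGF libraries. RPL41 fell by 0.40 on the log2 scale, from 2015, 2287 and 1811 CPM to 1600, 1580 and 1447. RPL3, which reaches into the peptidyl transferase centre, had 1193, 1298 and 1260 CPM in untreated cells and 1038, 921 and 1005 after EGF, a log2 fold change of -0.34 ± 0.07.

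The members that rose were RPL6, RPL23, RPL5 and RPS7. That is 3 of 46 large subunit genes (6.5%) and 1 of 31 small subunit genes (3.2%), against 32.4% of all genes tested. RPL6, a surface protein of the large subunit, had 773, 846 and 839 CPM in untreated cells and 984, 954 and 1027 after EGF. Every EGF library was above every untreated library, and the log2 fold change was 0.27 ± 0.06 (edgeR adjusted p = 0.0011). RPL6 passed the test in the same direction in all 22 alternative fits. RPL23, which forms part of the face that meets the small subunit, had 967, 1071 and 989 CPM in untreated cells, 1252, 1172 and 1208 after EGF and 1124, 1100 and 987 after bleogen pB1. Its log2 fold change for EGF was 0.26 ± 0.07, and it passed in 18 of 22 alternative fits. RPS7, a small subunit protein that can bind MDM2, had 467, 526 and 421 CPM in untreated cells and 544, 564 and 558 after EGF. The EGF values lay close together and above the widely spread untreated ones, with a log2 fold change of 0.24 ± 0.07 and a pass in 17 of 22 alternative fits. Under upper-quartile scaling and with limma on FPKM only RPL6 of the 4 passed.

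**Figure D4:**
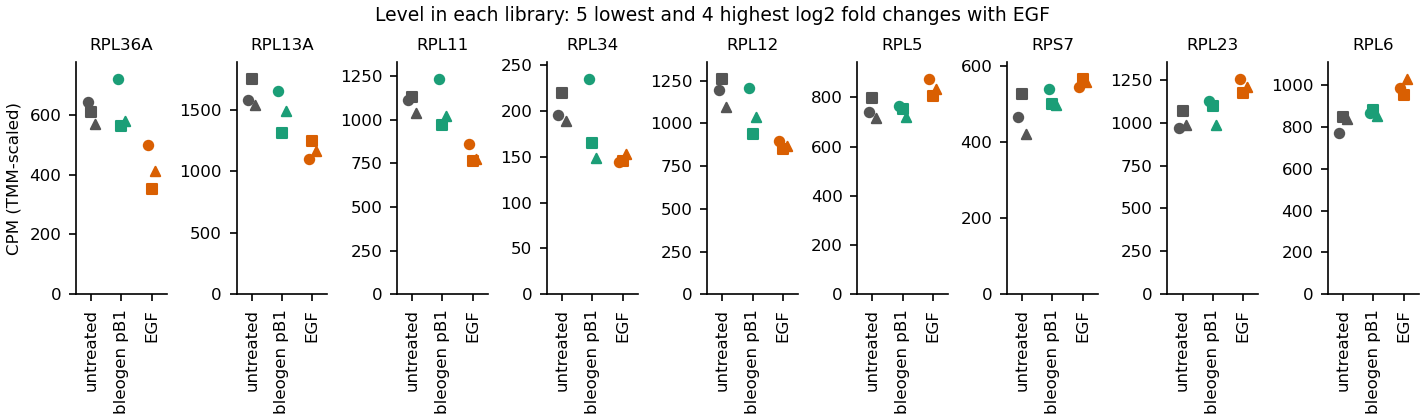
Level in CPM (TMM-scaled, axes from 0) of the 5 members with the lowest and the 4 with the highest log2 fold change after EGF that passed the test, 1 panel per gene, with the 3 replicates of each group as points. In RPL36A to RPL12 the EGF points are the lowest, and in RPL6 they reach 954 to 1027 CPM, above every untreated point.

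The 2 proteins of the 5S ribonucleoprotein differed in direction after EGF. RPL5 and RPL11 join 5S rRNA to the large subunit in one particle, and outside the ribosome that particle inhibits MDM2 and so stabilizes p53. RPL11 had 1115, 1132 and 1041 CPM in untreated cells, 861, 767 and 774 after EGF and 1232, 969 and 1021 after bleogen pB1. The EGF libraries were lowest without overlap, and the log2 fold change was -0.45 ± 0.09 (edgeR adjusted p = 0.00046). RPL5 had 741, 798 and 717 CPM in untreated cells and 873, 804 and 833 after EGF. The EGF values were all above the untreated ones, with the lowest EGF library close to the highest untreated one, and the log2 fold change was 0.15 ± 0.06 (edgeR adjusted p = 0.039). RPL5 passed in 11 of 22 alternative fits, whose adjusted p ran from 0.012 to 0.50, and RPL11 in all 22.

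Of the 3 stalk proteins, which recruit the translational GTPases, RPLP0 and RPLP1 were lower after EGF. RPLP0 had 2297, 2445 and 2222 CPM in untreated cells and 1965, 2023 and 1995 after EGF, a log2 fold change of -0.22 ± 0.06. RPLP1 had 1234, 1297 and 1170 CPM against 1012, 1046 and 1110, also -0.22 ± 0.06. In both, the EGF libraries lay below all untreated libraries. RPLP2, the partner of RPLP1 in the stalk, had 383, 435 and 381 CPM in untreated cells and 355, 420.5 and 444 after EGF, which overlapped (log2 fold change 0.03 ± 0.09). Of the 8 proteins around the peptide exit, RPL19, RPL26 and RPL31 were lower and 0 higher, a share of 37.5% near the 33.6% of all genes tested. RPL31 had the lowest value of this group with -0.30.

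In the small subunit, 11 of 31 genes (35.5%) were lower after EGF, near the 33.6% of all genes tested, and 1 (3.2%) was higher, against 32.4%. The median log2 fold change was -0.15. The lower ones were RPS27, RPS18, RPS4X, RPS15A, RPS24, RPS25, RPS28, RPS9, RPS3A, RPS2 and RPSA. RPS27, a zinc finger protein of the subunit, had 607, 757 and 602 CPM in untreated cells and 470, 479 and 512 after EGF, a log2 fold change of -0.43 ± 0.11. RPS18, at the top of the head, had 818, 943 and 744 CPM against 579, 642 and 646, a log2 fold change of -0.42 ± 0.10. Neither gene overlapped between the 2 groups. RPS4X, a gene of the X chromosome, had 1394, 1487 and 1197 CPM against 1165, 1016 and 1037 and a log2 fold change of -0.34 ± 0.10. RPS24 had 1124, 1271 and 1141 CPM against 1026, 915 and 974 and a log2 fold change of -0.28 ± 0.08. RPSA, also known as the laminin receptor, had 817, 876 and 797 CPM in untreated cells and 745.5, 756 and 743 after EGF. Its log2 fold change was -0.15 ± 0.05, the smallest of those that passed.

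Several small subunit proteins with well known roles did not pass the test for EGF. RPS6, the substrate of S6 kinase downstream of mTOR, had 1561, 1729 and 1558 CPM in untreated cells and 1531, 1508 and 1598 after EGF. These ranges overlapped, and the log2 fold change was -0.06 ± 0.07. RPS27A, which is made as a fusion with ubiquitin, had a log2 fold change of -0.05 ± 0.08. At the mRNA entry site, RPS2 had 4047, 4327 and 3825 CPM in untreated cells and 3643, 3631 and 3567 after EGF, and fell by 0.17 on the log2 scale. RPS9, also at that site, fell by 0.22, while RPS3 (-0.13 ± 0.09) did not pass. Elsewhere in the subunit, RPS23 (-0.08 ± 0.07) did not pass either. At the mRNA exit site RPS28 fell by 0.25. RPS14 (-0.24 ± 0.11) and RPS26 (-0.01 ± 0.13) did not pass. RPS26 was the more spread of the pair, with 280.5, 179 and 225 CPM after EGF against 230.1, 249 and 209 in untreated cells. Of the 14 proteins of the head of the subunit, RPS18, RPS25 and RPS28 (21.4%) were lower and 0 higher, below the 33.6% of all genes tested. Of 12 members whose loss of 1 copy is known to cause Diamond-Blackfan anaemia, 4 were lower (RPL11, RPS24, RPL26 and RPL15) and 2 higher (RPL5 and RPS7). The lower share, 33.3%, was that of all genes tested, and the higher share, 16.7%, was under their 32.4%.

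Members with a TOP tract at any listed RefSeq start and members without one were set side by side for EGF. Of the 46 with the tract, 24 (52.2%) were lower and 0 higher, against 33.6% and 32.4% of all genes tested, with a median log2 fold change of -0.21. Of the 16 without it, 7 (43.8%) were lower and 2 (12.5%) higher (RPL6 and RPS7), with a median of -0.18. The split depends on the exact base of the listed start. With a run allowed to begin within 10 bases of the start, 57 of the 62 matched members had one. The window of RPS7 shown above has pyrimidines without a break on both sides of its start. The 15 members with no matched start had 4 lower (26.7%) and 2 higher (13.3%) genes (RPL23 and RPL5) and a median of -0.13. These sets were not tested against each other. RPL36A, RPL13A, RPL11, RPL34 and RPL12 all carry the tract shown above, while RPS4X fell without one. RPL3 also fell and was counted without the tract, as its run from the listed start has only 4 pyrimidines. The base just before that start is a C that extends the run, so the class of RPL3 rests on the exact listed base. RPS6 carries a run of 9 pyrimidines and did not pass the test.

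Bleogen pB1 left the members without a call. By edgeR's quasi-likelihood test 0 of 77 members passed an adjusted p of at most 0.05 in either direction, against 2.55% of all genes tested that were lower and 1.56% that were higher. DESeq2 also called 0. With the fold limit 1.26% and 0.218% of all genes tested were lower and higher. The members' median log2 fold change was -0.03, with a range of -0.21 to 0.21, and that of all genes tested was -0.001. The sign of this median was not stable: it was -0.11 without bleogen pB1 replicate 1, -0.09 without untreated replicate 3, 0.03 without untreated replicate 2 and 0.01 without bleogen pB1 replicate 2. At an unadjusted p under 0.05 stood 2 members. RPS12, a protein of the head of the small subunit, had 396, 444 and 407 CPM in untreated cells and 389, 339 and 348 after bleogen pB1. These did not overlap, and its log2 fold change was -0.21 ± 0.09 (edgeR adjusted p = 0.18). RPL35, at the peptide exit, had 882, 968 and 763 CPM against 1079, 947 and 987 and a log2 fold change of 0.21 ± 0.08 (edgeR adjusted p = 0.16). Its groups overlapped. Between bleogen pB1 and untreated cells, 1 member (RPL6) was above without overlap and 1 (RPS12) below, against 14.4% and 14.7% of all genes tested.

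Leaving out 1 bleogen pB1 library changed these calls. Without bleogen pB1 replicate 1, the one with high member levels, 3 members passed as lower. RPL34 had a log2 fold change of -0.36 ± 0.08 (edgeR adjusted p = 0.011), RPL10 of -0.33 ± 0.10 (0.046) and RPL12 of -0.26 ± 0.07 (0.037). With all libraries their adjusted p were 0.55, 0.43 and 0.30, and over the alternatives they ran up to 0.97, 0.81 and 0.72. Without both libraries that stood apart, only RPL34 passed, with -0.30 ± 0.07 (edgeR adjusted p = 0.045). In RPL34 the bleogen pB1 libraries had 234, 165 and 149 CPM, so replicate 1 was above every untreated library and the others were below them all.

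The test of EGF against bleogen pB1 compared the agonists directly, at doses that differ. Of the 77 members, 25 (32.5%) were lower after EGF than after bleogen pB1 by edgeR, near the 29.7% of all genes tested. Only 3 (3.9%) were higher, against 28.5% of all genes tested. With the fold limit 1 was lower and 0 higher, against 18.0% and 10.8%. The median log2 difference was -0.14 over the members and -0.01 over all genes tested, and 38 members were below and 4 above without overlap, against 31.7% and 30.7% of all genes tested. With no scaling factors, and likewise with upper-quartile factors, 43 were lower and 0 higher. The lowest differences were those of RPL36A (-0.56 ± 0.12), RPL11 (-0.42 ± 0.09), RPL41 (-0.38 ± 0.09), RPS18 (-0.35 ± 0.10) and RPL13A (-0.34 ± 0.09). RPL6 (0.19 ± 0.06), RPL23 (0.18 ± 0.07) and RPL5 (0.17 ± 0.06) were higher after EGF. The count of lower members was 12 without bleogen pB1 replicate 1, 15 without EGF replicate 2, 16 without EGF replicate 3 and 14 without both libraries that stood apart. The call of RPL36A past the fold limit was lost in the first, second and last of these. No higher member passed without EGF replicate 3 or without bleogen pB1 replicate 3. This comparison shares its EGF libraries with that of EGF against untreated cells.

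The listed gene length, an average over the transcripts of a gene in each library, was used to look for a changed mix of transcripts. Of the 77 members, 36 had 1 transcript and 41 had a length that differed between libraries. Group means differed by over 1% in 6 members and by at most 3.14%. RPS29 had the largest difference in percent among those whose groups did not overlap (-2.53% for EGF against untreated), with 399.1 ± 3.5 bases (SD, n = 3) in untreated cells, 389.0 ± 1.2 after EGF and 397.0 ± 3.9 after bleogen pB1. RPL10 and RPL15 had the largest differences in bases among groups without overlap. RPL10 had 2331.7 ± 2.5 bases in untreated cells and 2341.9 ± 8.4 after EGF, and RPL15 had 2377.5 ± 3.5 in untreated cells and 2390.1 ± 7.9 after bleogen pB1. In each of these 3 comparisons the groups did not overlap, and the exact two-sided permutation p was 0.1, the smallest that 3 against 3 libraries can give. The change was not confined to these genes. For EGF against untreated, RPL27 (1.6%), RPS14 (1.45%) and RPL26 (1.12%) also differed without overlap, by more in percent than RPL10 (0.44%).

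Some ribosomal protein genes lie outside the symbol pattern. FAU, which encodes the small subunit protein eS30 as a fusion, rose after EGF by 0.32 ± 0.08, from 175, 199.5 and 179 CPM to 204, 249 and 236. RACK1, a scaffold protein on the head of the small subunit, had a log2 fold change of -0.09 and did not pass. Of 6 paralogues that passed the count filter, 4 (66.7%) were higher and 1 (16.7%) lower after EGF, against 32.4% and 33.6% of all genes tested. RPL22L1 rose by 0.69 ± 0.15 from 11.7, 15.0 and 14.4 CPM to 22.2, 18.2 and 26.0, without overlap. Its partner RPL22 fell from 488, 512 and 491 CPM to 416, 393 and 426.5, a log2 fold change of -0.27 ± 0.06. RPL39L (0.37) and RPL7L1 (0.28) were also higher. RPS27L, which p53 induces, fell by 0.73 on the log2 scale, from 23.9, 24.7 and 21.9 CPM to 15.4, 12.6 and 14.4. Its partner RPS27 fell as well. After bleogen pB1 none of the 6 passed.

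Most of the 8 listed chaperones and importers of ribosomal proteins rose after EGF, a list chosen with earlier results of these data known. Of 8 such genes, 7 (87.5%) were higher and 0 lower, against 32.4% and 33.6% of all genes tested, with a median log2 fold change of 0.58. After bleogen pB1 0 of 8 passed, though all 8 log2 fold changes were above 0 (median 0.19) and 5 genes lay above all untreated libraries, against 14.4% of all genes tested. The list was not tested against the members. BCCIP, a chaperone of RPL23, had 73.3, 75.1 and 74.6 CPM in untreated cells, 132, 124 and 129.7 after EGF, and 78.4, 101.1 and 89.4 after bleogen pB1. Its log2 fold change for EGF was 0.79 ± 0.08, beside 0.26 for RPL23. HEATR3, which brings RPL5 into the nucleus, rose by 0.50 ± 0.10, beside 0.15 for RPL5. GRWD1, a chaperone of RPL3, rose by 0.48 ± 0.07 while RPL3 fell. PDCD2, a chaperone of RPS2, rose by 0.42 ± 0.05 while RPS2 fell. TSR2, the chaperone of RPS26, did not pass (-0.15 ± 0.07), nor did RPS26. In these pairs the chaperone and its client moved in the same direction in some cases and in opposite directions in others.

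Of 18 translation factors and other genes with TOP mRNAs, 4 (22.2%) were higher and 7 (38.9%) lower after EGF, against 32.4% and 33.6% of all genes tested, with a median log2 fold change of -0.11. EEF1A1, the elongation factor that delivers tRNA, fell by 0.29 ± 0.07 from 10780, 11450 and 10920 CPM to 8902, 8939 and 9235. TPT1 (-0.47 ± 0.08) and EEF1G (-0.56 ± 0.08) fell further than most members, and EIF4A2, a helicase of initiation, fell by 1.24 ± 0.14. The histone chaperone and nucleolar protein NPM1 rose by 0.58 ± 0.08 and EEF1B2 by 0.39 ± 0.06. Of 12 regulators of TOP translation and cap binding, 8 (66.7%) were higher and 2 (16.7%) lower. LARP1, which binds TOP tracts, rose by 0.45 ± 0.06, MTOR by 0.29 ± 0.06 and EIF4EBP1, an inhibitor of cap binding that mTOR controls, by 0.71 ± 0.07. PDCD4, an inhibitor of the eIF4A helicase, fell by 1.69 ± 0.14, from 105, 97.5 and 101 CPM to 29.0, 34.1 and 31.2. MYC, a transcription factor for ribosome genes, had a log2 fold change of 0.07 and did not pass. None of these 18 and 12 genes passed after bleogen pB1, with medians of -0.03 and 0.08.

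**Figure D5:**
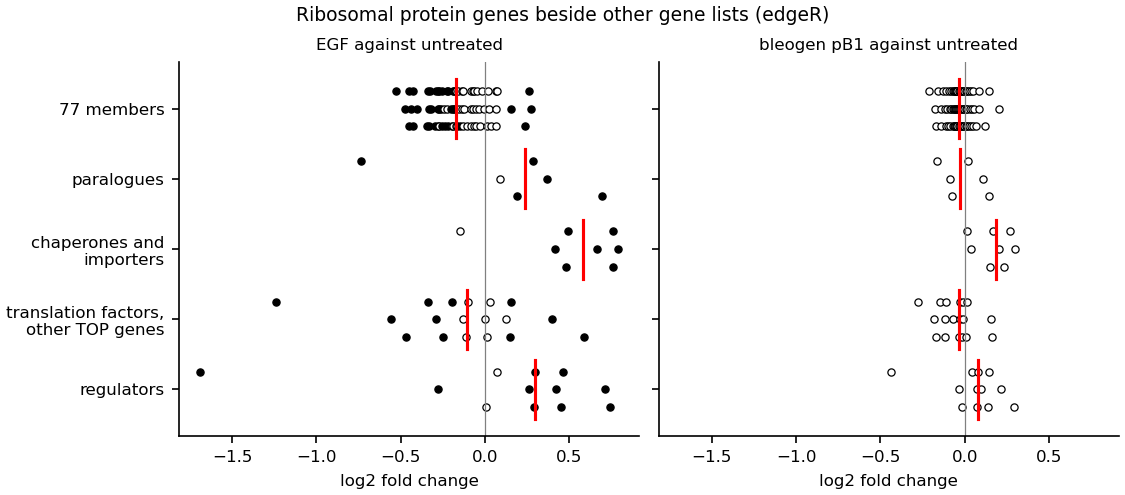
Log2 fold change (edgeR) of each tested gene in the 77 members and 4 other lists for EGF against untreated (left) and bleogen pB1 against untreated (right), with filled points for an adjusted p of at most 0.05, red bars for the median of each list and points spread vertically for legibility alone. With EGF the median is -0.17 for the members and 0.58 for the chaperones and importers, and with bleogen pB1 no point is filled.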

How the data were processed

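Polyadenylated RNA of 9 HaCaT libraries (3 untreated, 3 EGF, 3 bleogen pB1) was sequenced by BGI. The labels name the RNeasy kit and DNBSEQ, and the methods of the study the PureLink kit and BGISEQ. The authors had the reads mapped to GRCh38.p12 (build as in the submitters' processing notes). The counting program, and whether it used the strand of these dUTP libraries, are not given in the sources used here. Ribosomal protein genes have many processed pseudogenes and near-identical copies, and some overlap read-through genes, so how reads were divided could move their values. The authors deposited an expected count per gene, which is an estimate that need not be whole and carries no depth scaling. They also deposited FPKM, which the authors scaled for depth and gene length. The length that the authors list averages the transcripts of a gene, library by library.

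After rounding, the expected counts of all 9 libraries entered a single edgeR 4.0.16 fit under R 4.3.3 (filterByExpr, TMM, glmQLFit, glmQLFTest, 6 residual degrees of freedom), with p adjusted by Benjamini-Hochberg over 12394 genes. The SE was derived from the log2 fold change and its quasi-likelihood F. The limits, 0.05 for the adjusted p and 0.5 for the absolute log2 fold change, are those of the study. Levels of different genes were compared by FPKM, and groups by CPM on TMM-scaled library sizes (factors 0.9635 to 1.0238). Library totals of 20288417 to 21320994 set the depth. Alternatives were DESeq2 1.42.0, limma 3.58.1 on log2(FPKM + 1) or log2(FPKM + 0.1), other scalings and filters, the 6 compared libraries alone, single replicates left out, and a block for the replicate number. Leaving out untreated replicate 2 with bleogen pB1 replicate 1, and a fold limit of 0.25, were added after seeing the data.

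The members and gene lists were chosen with earlier results of these data known. Named were the 5 highest and 5 lowest passing members of each comparison, the 5 highest and lowest by FPKM, members with set roles, and those with the most different length. Others named (RPS27, RPS12, RPL35, RPL26, RPL27, RPL31, and list genes) complete a count and were chosen after their values were seen. Start sequences came from RefSeq (GRCh38.p14), matched by symbol. The values of 2 genes are not reported here, though both stay in the fits and counts. The scripts were tested on simulated counts for EGF against untreated. There edgeR recovered 87 to 92 of 100 changes of 2-fold, but only 32 to 44 of 100 changes of 1.25-fold. The changed genes were drawn from all 12394 genes, at any level, and were far fewer than those that passed in the data. The recovery of small changes was therefore not measured for genes as abundant as the members.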

Additional observations from a re-analysis of the deposited data

How the results depend on the processing

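No passing member changed sign under the 22 alternatives for a comparison. Of the 35 members lower after EGF, 20 passed in all of them, of the 4 higher ones 1 (RPL6), and of the 25 lower than after bleogen pB1 12. For EGF against untreated, limma on log2(FPKM + 1), with or without its filter, and on log2(FPKM + 0.1) gave 1 higher member and 7 lower past the fold limit. Upper-quartile factors gave 1 higher, 8 lower past the limit and a median of -0.28, no scaling factors 4 lower past the limit, and a limit of 0.25 gave 2 higher. For EGF against bleogen pB1, limma gave 0 higher and 3 lower past the limit in all versions, a median of -0.26, and 48 lower with the filter. No scaling and upper-quartile factors each gave 0 higher and 43 lower, the latter with 2 lower past the limit. A limit of 0.25 gave 0 higher and 16 lower. Without both libraries that stood apart 14 were lower, 0 past the limit, and 1 was lower for bleogen pB1 against untreated. The cause of these differences was not tested.

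With each replicate left out, lower members ranged from 21 to 44 and higher ones from 2 to 4 for EGF against untreated, with 0 to 3 past the limit (3 without untreated replicate 3, 2 without EGF replicate 1 and 0 without untreated replicate 1) and medians from -0.22 to -0.12. The 2 higher members were the count without untreated replicate 3. For EGF against bleogen pB1 the ranges were 12 to 30 lower, 0 to 4 higher, 0 to 1 past the limit and medians from -0.17 to -0.08. For bleogen pB1 against untreated they were 0 to 3 lower and medians from -0.11 to 0.03. With limma that median was 0.0004. The share of counts differed by -1.12 to -0.693 percentage points for EGF and by -0.341 to 0.157 for bleogen pB1. The lengths of RPL10, RPL15 and RPS29 differed by 5.4 to 13.4, 9.0 to 16.8 and -12.1 to -9.0 bases.

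The replicates share only a number: correlations of same-numbered deviations were 0.004 to 0.045 between EGF and untreated, and -0.03 to 0.207 between bleogen pB1 and untreated. With the replicate number as a block, 35 members were lower and 4 higher for EGF, 0 passed for bleogen pB1, and 23 were lower and 3 higher for EGF against bleogen pB1. With 3 libraries a group, differences near the median SE of 0.08 on the log2 scale were not detectable.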
